A study of Mus musculus with 8 samples.

Results

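The genes that charge and modify tRNAs were followed in total and ribosome-bound mRNA of mouse oocytes from old and young females. Members were taken by gene symbol. They comprised the symbols of aminoacyl-tRNA synthetases (Iars, Lars2, Eprs and the like) and those of the Thumpd, Trm, Nsun, Pus, Elp, Adat, Tsen, Qtrt, Ctu, Dus and Ftsj1 tRNA modification and splicing genes. Of 8537 genes present in both the HA and the input table, 57 were members, of which 25 were synthetases (17 cytosolic and 8 mitochondrial) and 32 were modifiers. The modifiers held 19 RNA methyltransferase or partner genes, 4 Elongator subunits, 2 dihydrouridine synthases, 2 pseudouridine synthases, 1 deaminase, 1 queuine transferase subunit, 1 acetylation adaptor and 2 pseudogenes of Trmt112. A further 12 matching symbols were in the input table only and 1 was in the HA table only.

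All libraries came from metaphase II (MII) oocytes of C57BL/6 females with the genotype RiboTagF/F;Zp3-Cre, collected from the oviduct 13 h after 10 IU hCG, which followed 5 IU PMSG by 48 h. Young females were 1 month old, and old females were retired breeders of 12 to 15 months. The Cre recombinase is driven by the oocyte promoter Zp3, so that the HA-tagged ribosomal protein Rpl22 is made in oocytes, and an HA immunoprecipitate of each lysate gave the ribosome-bound mRNA (HA). Each of the 4 pools (2 old, 2 young) held 200 oocytes, and 10% of its lysate was kept as total mRNA (input), giving 8 libraries. Values are CPM, the reads of a gene relative to library size after the authors' TMM scaling, which was set apart for HA and input. In such bulk samples, fewer cells of a type and less RNA per cell cannot be told apart.

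Aminoacyl-tRNA synthetases attach each amino acid to its cognate tRNA, and cytosolic and mitochondrial translation are served largely by separate enzymes. Several cytosolic synthetases are held together in a multisynthetase complex. After transcription, tRNAs are methylated, acetylated, deaminated or otherwise modified at many positions, and modifications in the anticodon loop tune decoding while others stabilise the fold of the tRNA. A fully grown oocyte is transcriptionally silent and meets the demands of maturation from stored mRNA, whose translation is regulated in part through cytoplasmic polyadenylation elements (CPEs) in the 3'-UTR.

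Reads on genes numbered 37817382 to 59688578 in the HA and 38276453 to 60052814 in the input libraries. The floor used below, 3 reads, was 0.0388 to 0.111 CPM in HA and 0.0435 to 0.0788 CPM in input, and covers counting error only. Genes of the HA table without a read made up 2.89% and 4.11% of the old and 0.112% and 0.865% of the young HA libraries. All 12 oocyte markers examined were in both tables. They summed to 13308 and 19961 CPM in old and 12326 and 12992 CPM in young HA libraries. In input they summed to 10315 and 9817 CPM in old and 11279 and 10910 CPM in young. Of 15 cumulus and granulosa cell markers, 5 were in the HA table (Cd44, Cyp19a1, Fshr, Nr5a2 and Ptgs2). Their summed level was 91.6 to 144.9 CPM in old and 204.6 to 209.8 CPM in young. In input, 10 of 15 were listed (those 5 with Has2, Inha, Inhba, Kitl and Tnfaip6), summing to 158.5 to 317.0 CPM in old and 199.7 to 278.3 CPM in young. Amh, Amhr2, Foxl2, Lhcgr and Ptx3 were in neither table. None of 8 blood markers was listed in either table, and of 10 oviduct and stroma markers Epcam was listed in input, at 57.6 CPM in the first old pool and 0.0581 to 3.29 CPM in the other 3. The part of these cells in the differences below was not tested.

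Iars, the isoleucyl-tRNA synthetase, had the highest level per length of all members. Its mean over the 4 pools was 239.4 CPM per kb of exon in HA and 181.5 CPM per kb in input. In HA, Iars measured 986 and 1741 CPM in the old pools and 937 and 1385 CPM in the young pools, and in input 873 and 1129 CPM in old and 701 and 1124 CPM in young. The ages overlapped in both fractions. Farsb, the beta subunit of phenylalanyl-tRNA synthetase, followed at 93.6 CPM per kb in HA and 64.2 CPM per kb in input. Thumpd1, an RNA-binding adaptor for tRNA acetylation, ranked 3 in HA at 83.3 CPM per kb and 5 in input at 30.6 CPM per kb. Lars2, the mitochondrial leucyl-tRNA synthetase, had 76.6 CPM per kb in HA and 19.8 CPM per kb in input. The Elongator subunit gene Elp2 had 35.8 CPM per kb in HA and 28.0 CPM per kb in input. Nsun3, which methylates the mitochondrial methionine tRNA, had 28.3 CPM per kb in HA and 34.2 CPM per kb in input. At the other end of the HA order were Trmt2a (0.283 CPM per kb) and the pseudouridine synthase gene Pus10 (0.259 CPM per kb).

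The share of abundant members was counted in each fraction. At least 10 CPM in at least 2 HA libraries was reached by 16 of 25 synthetases (64.0%) and 15 of 32 modifiers (46.9%), against 66.0% of all genes in both tables. In input the corresponding numbers were 22 of 25 synthetases (88.0%) and 19 of 32 modifiers (59.4%), against 77.3% of all genes. The median modifier on the log2(CPM + 1) scale lay at 1.57 and 1.89 in the old HA pools and at 2.60 and 3.43 in the young HA pools. The median synthetase lay at 3.85 and 4.08 in old and at 4.21 and 4.35 in young HA pools.

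**Figure D1:**
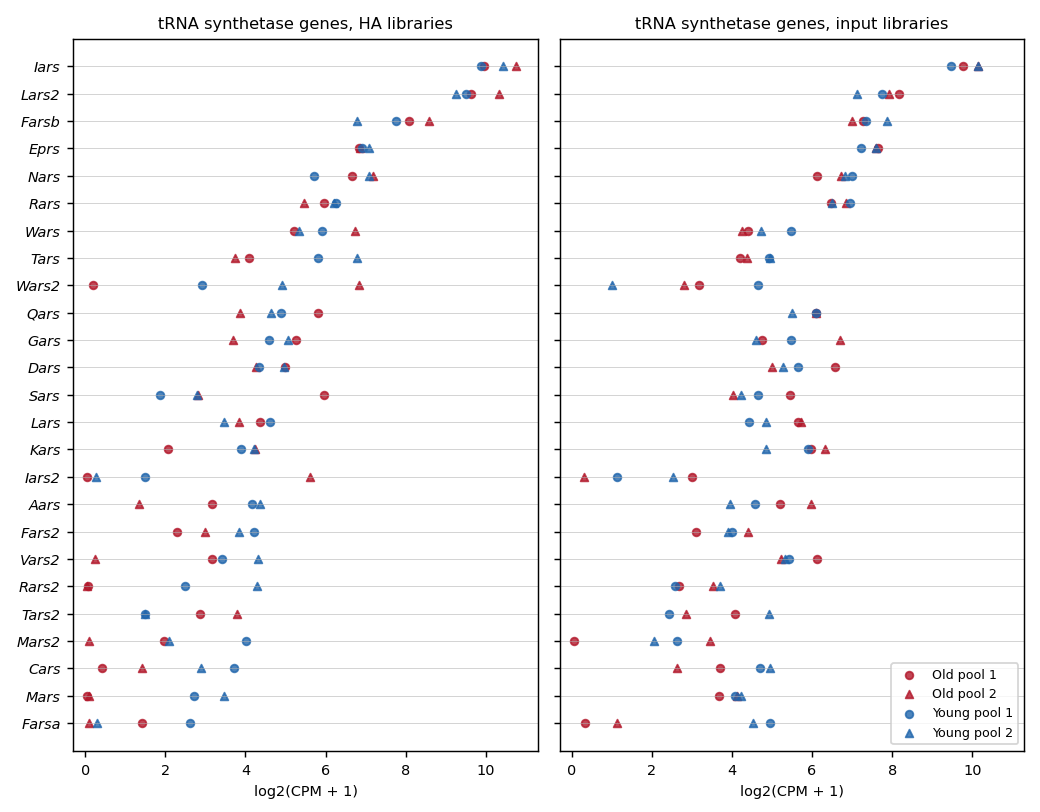
Levels of the 25 tRNA synthetase genes on the log2(CPM + 1) scale in the 4 HA libraries (left) and the 4 input libraries (right), ordered by mean HA CPM. Each point is 1 library, red for old and blue for young, with circles for pool 1 and triangles for pool 2. Mars and Rars2 lie near 0 in both old HA libraries and not in their input libraries.

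**Figure D2:**
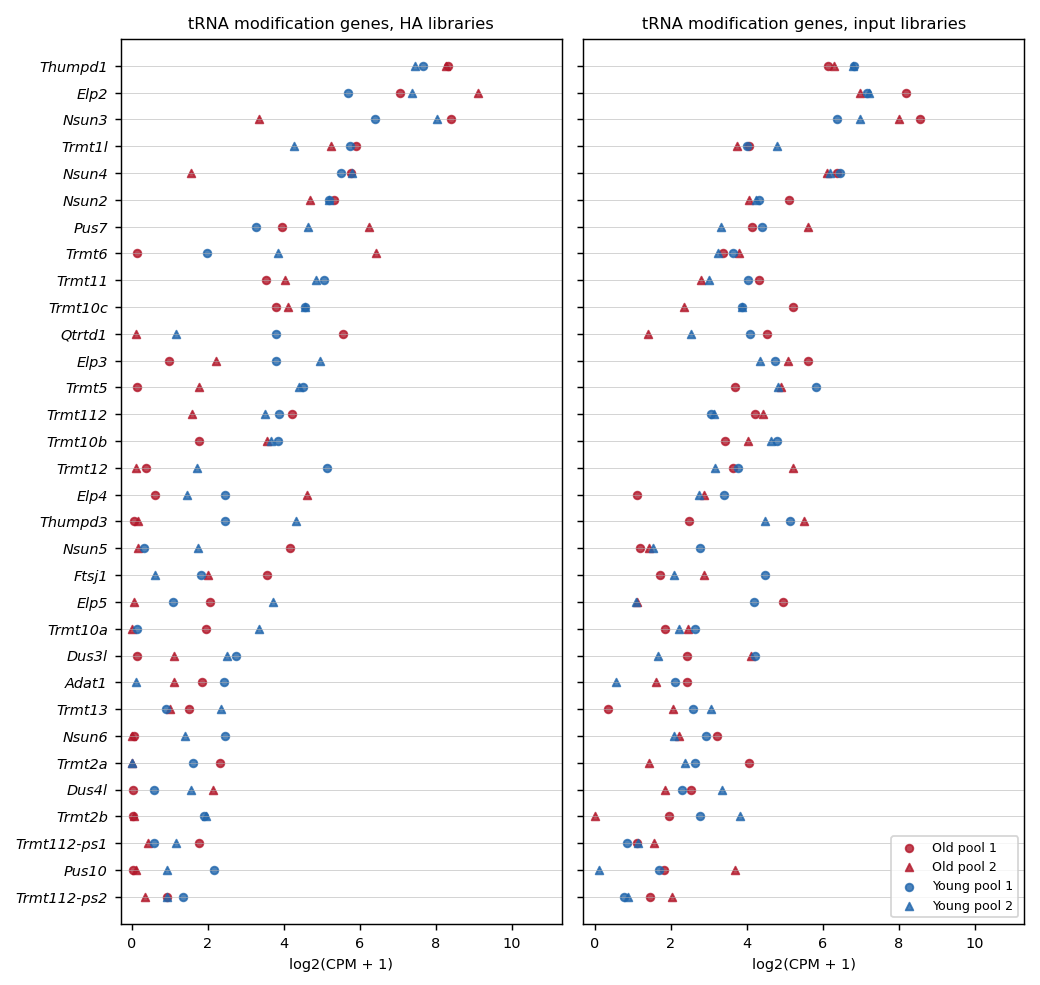
Levels of the 32 tRNA modification genes, drawn as for the synthetases (log2(CPM + 1), 1 point per library, red old and blue young). Thumpd1 has both old libraries above both young libraries in HA and below them in input. Thumpd3, Nsun6, Trmt2b and Pus10 lie near 0 in both old HA libraries.

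Of the 57 members, 55 had an annotated 3'-UTR in GENCODE release M21 (GRCm38). A CPE, searched as TTTTAT or TTTTAAT on the transcript strand of the longest 3'-UTR, was present in 36 of 55 (65.5%), against 70.6% of 7940 genes in both tables with a 3'-UTR. The median 3'-UTR was 1498 bases long for members and 1538 bases for all these genes. Synthetases held a CPE in 13 of 25 (52.0%) and modifiers in 23 of 30 (76.7%). A CPE within 100 bases of the 3' end was present in 13 of 55 members (23.6%), against 20.9% of all genes. The last CPE of the 3'-UTR is shown for 6 members on which the comparisons below turn, with the motif in capitals and 30 bases in all, 5′ to 3′ on the transcript strand.
Thumpd1 (chr7:119715501-119715530, minus strand): ttttaacggcctTTTTATttgtttgttttg
Trmt1l (chr1:151458103-151458132, plus strand): tgctttttaagtTTTTATtattttaaagaa
Rars2 (chr4:34660077-34660106, plus strand): gataaatatgttTTTTATgcaaatgagttc
Nsun3 (chr16:62733247-62733276, minus strand): atttttatcttaTTTTATatgtataaatat
Pus10 (chr11:23732010-23732039, plus strand): acctcttttgtcTTTTATgtaaagagaaac
Trmt12 (chr15:58874991-58875020, plus strand): aaatcctaagatTTTTATagacttcttttc

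These 6 CPEs lay at very different distances from the end of the longest annotated 3'-UTR. The mRNA ends used in these oocytes were not determined. Counted from the first base of the motif, the distance was 47 bases in Trmt1l and 79 bases in Rars2. It was 426 bases in Thumpd1, 821 bases in Nsun3, 855 bases in Pus10 and 2125 bases in Trmt12. Thumpd1 had 2 CPEs in a 3'-UTR of 1579 bases and Nsun3 had 5 in 3236 bases. In Iars, Farsb, Lars2, Mars, Vars2, Wars and Trmt2b these letters were not in the annotated 3'-UTR. A match is a description of the sequence and not evidence of a bound factor.

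The first comparison asked which of these mRNAs were more or less bound to ribosomes in old MII oocytes. No member passed an adjusted p of 0.05 by limma on log2(CPM + 1), with Benjamini-Hochberg adjustment over the 8898 genes of the HA table, and neither did any other gene (percent called, 0). At an unadjusted p under 0.05, the old pools were higher for 0 members and lower for 8 (14.0%), where 4.28% of all genes had a higher and 10.5% a lower value. Without the first old pool the counts were 7 and 11 (12.3% and 19.3%, against 12.9% and 13.2% of all genes), and without the second old pool 3 and 8 (5.26% and 14.0%, against 10.3% and 9.41%). In 22 members (38.6%) both old pools lay below both young pools and in 6 (10.5%) above them, against 24.7% and 17.2% of all genes. The median log2 difference, old minus young, was −0.35 for synthetases, −0.56 for modifiers and −0.14 for all genes. Among the 19 methyltransferase genes, 14 (73.7%) had a negative difference and 5 a positive one, with a median of −0.79. A negative difference was found in 54.1% of all genes, and in 72.9% of those with a mean under 10 CPM in HA.

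The differences in HA were also taken apart by level. Of the 25 members with a mean under 10 CPM in HA, 17 had a negative difference and the median was −1.10, and the corresponding median over all such genes was −0.98. Of the 32 members with a mean of at least 10 CPM, 17 had a negative difference and the median was −0.08, against 0.18 for all genes at that level. Of the 8 members lower at an unadjusted p under 0.05, 6 belonged to the low group, as did 820 of the 930 such genes in the whole table.

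Mars, the cytosolic methionyl-tRNA synthetase, had 1 and 2 reads in the old HA libraries (0.0238 and 0.0739 CPM) and 433 and 565 reads in the young (5.60 and 9.96 CPM). Both old libraries were within the floor and the ages did not overlap. The log2 difference was −3.02 ± 0.86 (SE; limma adjusted p = 0.297). In input Mars had 11.7 and 16.4 CPM in old and 15.9 and 17.8 CPM in young, which overlapped. Mars (chr10:127296221-127311786, minus strand) overlaps Ddit3 on the opposite strand, and reads were counted without regard to strand. Other members also overlap a protein-coding gene on the opposite strand, among them Farsb, Elp2, Pus10, Nsun6, Wars, Trmt1l and Fars2.

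Rars2, the mitochondrial arginyl-tRNA synthetase, had 2 and 1 reads in the old HA libraries and 357 and 1052 reads in the young (4.61 and 18.5 CPM). The log2 difference was −3.33 ± 1.04 (limma adjusted p = 0.297). Its input libraries had 5.42 and 10.6 CPM in old and 5.01 and 11.9 CPM in young, so that the ages overlapped in total mRNA. Thumpd3, a tRNA guanosine methyltransferase, had 2 and 3 reads in old HA and 341 and 1081 reads in young HA (4.41 and 19.1 CPM). The log2 difference was −3.27 ± 1.06 (limma adjusted p = 0.297). In input it had 4.52 and 44.6 CPM in old, on both sides of the young values of 34.2 and 21.1 CPM. Trmt2b, a uridine methyltransferase, had 1 read in each old HA library against 208 and 164 reads in the young (2.69 and 2.89 CPM), with a log2 difference of −1.88 ± 0.55 (limma adjusted p = 0.297). In input Trmt2b was also lower in old, at 2.88 and 0 CPM against 5.82 and 13.1 CPM, without overlap.

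These 4 genes, Nsun6 and Pus10 made up the 6 members with at most 3 reads in both old HA libraries, and 0 members were so in both young HA libraries. Over all genes in both tables the numbers were 359 and 0. Before TMM scaling, each of the 8898 genes of the HA table reached 1 CPM in 2 or more libraries (8726 did after it). A gene near 0 reads in both old libraries thus had to be higher in both young libraries. The 6 members are the low-group members counted above as lower at an unadjusted p under 0.05. Their lower value in old HA was set by this filter, also where a test called it. The fitted differences depend on the added 1 CPM at these levels and are not bounds. Trmo, the matching symbol found in the HA table only, had 4 and 1 reads in old and 169 and 1304 reads in young.

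The members named for a higher value in old HA libraries were abundant ones, and none passed the test. Farsb measured 270.9 and 384.7 CPM in old and 215.0 and 110.0 CPM in young HA, without overlap, and the log2 difference was 1.06 ± 0.54 (limma adjusted p = 0.440). Lars2 measured 786 and 1278 CPM in old and 726 and 607 CPM in young HA, also without overlap, with a log2 difference of 0.59 ± 0.40 (limma adjusted p = 0.622). The direction for Lars2 turned under other scalings, to −0.05 with every library scaled to the same sum and to −0.16 with quantile normalization. Elp2 measured 131.7 and 551 CPM in old and 50.0 and 164.9 CPM in young HA, where the ages overlapped (log2 difference 1.56 ± 0.88, limma adjusted p = 0.505). Thumpd1 measured 319 and 307 CPM in old and 201.6 and 173.9 CPM in young HA, without overlap, and the log2 difference was 0.74 ± 0.45 (limma adjusted p = 0.553).

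The number of HA calls depended on the fit. On recovered reads, edgeR's likelihood ratio test called 3 members, all lower in old (Mars, Rars2 and Thumpd3), with 0.427% of all genes called higher and 2.89% lower. DESeq2 called 4, these and Trmt12, with 1.85% and 3.85% of all genes, while edgeR's quasi-likelihood test called 0. All 4 lay under 1 CPM in both old HA libraries, so their lower direction was set by the table's filter. Without the first old pool limma called 3 (Elp2 higher, Nsun3 and Nsun4 lower; 5.26%), with 2.92% of all genes called higher and 1.49% lower. Without the second young pool it called 6 (Mars, Nsun6, Pus10, Rars2, Thumpd3 and Trmt2b; 10.5%), all lower, with 7.13% of all genes called lower. Without the second old pool it called 0, with 0.0337% of all genes called higher.

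The second comparison asked the same of total mRNA. Members were about evenly split in input. By limma none had an adjusted p under 0.05 over the 10530 genes of the table (0.00950% of all genes did), 29 differences were positive and 28 negative, and the median log2 difference was −0.03 for synthetases, 0.09 for modifiers and −0.03 for all genes. At an unadjusted p under 0.05, 1 member was higher and 1 was lower (1.75% each), against 2.71% and 3.48% of all genes. Without the first old pool 4 were higher and 3 lower, against 5.59% and 5.51% of all genes, and leaving out another pool gave 1 or 2 higher and 1 to 3 lower. In those other fits 0.864% to 4.64% of all genes were higher and 2.01% to 4.70% lower. In 10 members both old pools lay above the young and in 11 below (17.5% and 19.3%), against 16.4% and 18.9% of all genes.

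Farsa, the alpha subunit of phenylalanyl-tRNA synthetase, had 0.257 and 1.18 CPM in old and 29.9 and 22.0 CPM in young input. This was the member with the largest negative difference in input, and the log2 difference was −4.01 ± 1.00 (limma adjusted p = 0.778). In HA, Farsa had 1.66 and 0.0739 CPM in old and 5.14 and 0.229 CPM in young, which overlapped. Its partner subunit Farsb had 152.6 and 125.9 CPM in old and 162.4 and 232.2 CPM in young input, with a log2 difference of −0.48 ± 0.33. Nsun3 had 374 and 254 CPM in old and 81.2 and 124.4 CPM in young input, without overlap, and the log2 difference was 1.61 ± 0.35 (limma adjusted p = 0.778). In HA, Nsun3 spread from 9.06 to 337 CPM in old and from 83.7 to 259.8 CPM in young. On recovered reads, edgeR's likelihood ratio test and DESeq2 each called Farsa lower and Nsun3 higher in old input, whereas edgeR's quasi-likelihood test called 0 members. Of all genes, edgeR's likelihood ratio test called 0.180% higher and 0.294% lower, and DESeq2 called 0.541% in either direction.

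The other synthetases nearest the top in input were Aars and Lars, the alanyl- and leucyl-tRNA synthetases of the cytosol. Aars had 35.9 and 61.8 CPM in old against 22.9 and 14.5 CPM in young, and Lars had 48.8 and 51.9 CPM against 20.3 and 27.8 CPM, both without overlap. Their log2 differences were 1.33 ± 0.63 and 1.05 ± 0.55 (limma adjusted p = 0.778 and 0.783). Cars, the cysteinyl-tRNA synthetase, had 12.0 and 5.20 CPM in old and 25.1 and 30.0 CPM in young input, with a log2 difference of −1.66 ± 0.84 (limma adjusted p = 0.781). Pus10 had 2.50 and 11.8 CPM in old and 2.25 and 0.0788 CPM in young input, the last being 3 reads (log2 difference 1.84 ± 1.07, limma adjusted p = 0.801). Thumpd1 had 69.5 and 77.8 CPM in old and 112.1 and 108.8 CPM in young input, and both old pools lay below both young pools, with a log2 difference of −0.58 ± 0.36 (limma adjusted p = 0.827). Among the 12 matching symbols found in the input table only, Hars, the histidyl-tRNA synthetase, had the highest mean level at both ages, at 10.7 and 15.8 CPM in old and 8.82 and 13.2 CPM in young.

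**Figure D3:**
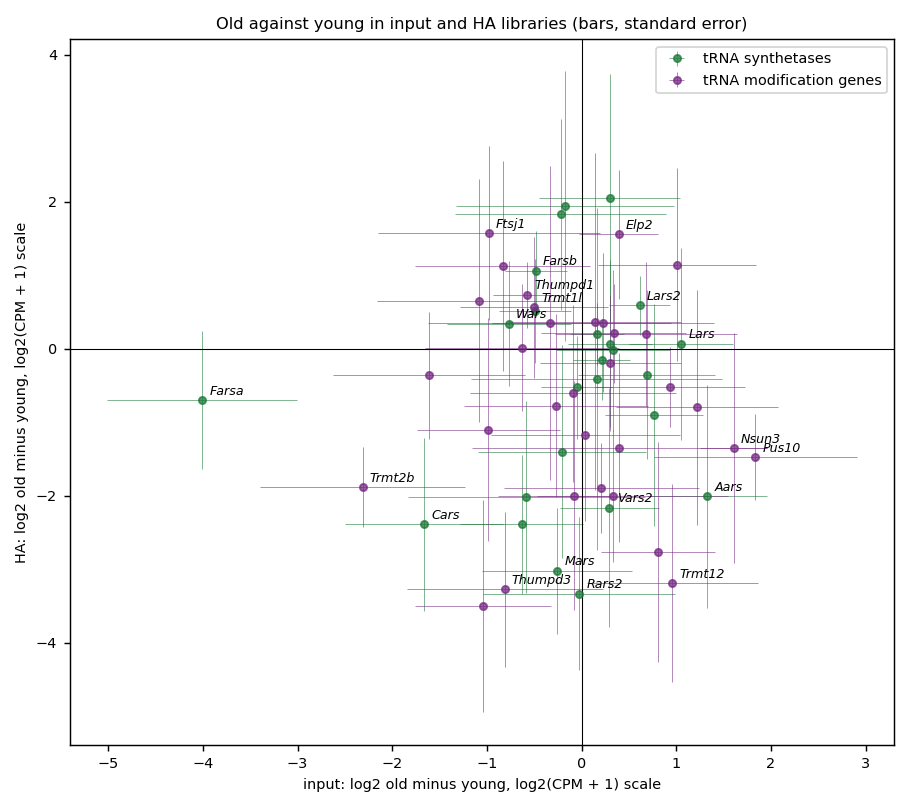
Difference between old and young of the 57 members on the log2(CPM + 1) scale, in input (x axis) and HA (y axis), with bars for the standard error of 2 pools against 2. Synthetases are green, modifiers purple, and the genes given with values per library are labelled. Mars, Rars2 and Thumpd3 lie near −3 on the HA axis and within 1 of 0 on the input axis, and Farsa lies at −4.01 on the input axis.

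The third comparison asked whether ribosome loading relative to total mRNA, the HA/input ratio of a pool, differed between ages. By limma, 0 of 57 members had an adjusted p under 0.05 (percent called over 8537 genes, 0). At an unadjusted p under 0.05, 0 were higher in old and 4 were lower (7.02%), namely Rars2, Pus10, Trmt12 and Elp3, against 2.33% and 4.23% of all genes. Rars2, Pus10 and Trmt12 lay under 1 CPM in both old HA libraries, so the filter of the HA table had set the direction of their HA values. On the log2(CPM + 1) scale, both old ratios lay below both young ratios in 19 members (33.3%) and above them in 8 (14.0%), against 20.4% and 17.2% of all genes. The median log2 difference was −0.47 for synthetases, −0.49 for modifiers and −0.10 for all genes. With quantile normalization 3 members were higher and 1 was lower at an unadjusted p under 0.05, and with a pseudocount of 5 CPM 1 was higher and 2 were lower. The shares of all genes were not counted for these settings, so these counts cannot be set against them. Without the first old pool 5 were higher and 11 lower (8.14% and 12.5% of all genes), and without the second old pool 4 and 5 (7.63% and 9.02%). Without either young pool 0 were higher and 1 was lower (1.39% of all genes lower without the first and 0.925% without the second).

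Thumpd1 had ratios of 4.58 and 3.94 in the old pools and 1.80 and 1.60 in the young pools, so that the ages did not overlap. The log2 difference in HA/input was 1.32 ± 0.70 (limma adjusted p = 0.761). Farsb had ratios of 1.78 and 3.06 in old and 1.32 and 0.474 in young (log2 difference 1.55 ± 0.86, limma adjusted p = 0.770), also without overlap. Farsa had ratios of 6.46 and 0.0625 in old and 0.172 and 0.0104 in young. On the log2(CPM + 1) scale its difference was 3.31 ± 1.39 (limma adjusted p = 0.724), with old input near 1 CPM or less. Ftsj1, a tRNA ribose methyltransferase, had ratios of 4.64 and 0.478 in old and 0.118 and 0.157 in young, with a log2 difference of 2.56 ± 1.29 (limma adjusted p = 0.749).

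On the lower side, Rars2 had ratios of 0.00877 and 0.00348 in old and 0.921 and 1.56 in young, with a log2 difference of −3.30 ± 1.11 (limma adjusted p = 0.724). Mars had ratios of 0.00202 and 0.00450 in old and 0.351 and 0.561 in young (log2 difference −2.76 ± 1.10, limma adjusted p = 0.724). Trmt12, an enzyme of wybutosine synthesis on phenylalanine tRNA, had ratios of 0.0251 and 0.00206 in old and 2.73 and 0.286 in young (log2 difference −4.15 ± 1.52, limma adjusted p = 0.724). Its HA libraries held 12 and 2 reads in old and 2646 and 129 reads in young, so that the young pools also differed widely from each other. Pus10 had ratios of 0.00951 and 0.00628 in old and 1.55 and 11.4 in young, the last over an input of 3 reads (log2 difference −3.31 ± 1.13, limma adjusted p = 0.724). Elp3, the catalytic subunit of Elongator, had ratios of 0.0204 and 0.112 in old and 0.50 and 1.54 in young, without overlap.

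Of the 8 synthetases in the multisynthetase complex, 7 had a negative HA/input difference between ages, with a median of −0.42. None of the 8 passed the unadjusted threshold in this contrast, and 3 (37.5%) had both old ratios below both young ratios, against 20.4% of all genes. In input 6 of the 8 had a positive difference (median 0.25) and in HA 3 had one (median −0.08).

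The last comparison set each member against the median gene of the same pool, since HA and input were scaled separately and a ratio has no absolute zero. By limma, 0 members had an adjusted p under 0.05 (percent called, 0). At an unadjusted p under 0.05, 6 members lay above the median gene (10.5%) and 5 below it (8.77%), against 11.0% and 6.91% of all genes. In all 4 pools, 5 members were above and 6 below the median gene, against 15.5% and 12.3% of all genes. The shares of members thus differed from those of all genes by less than 7 percentage points.

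Lars2 had the highest mean position, with ratios of 2.76 and 5.28 in old and 3.42 and 4.41 in young, or 2.41 ± 0.44 above the median gene on the log2 scale (limma adjusted p = 0.191). Whether all reads counted on Lars2 came from its mRNA was not tested. It lay at the 87.7th to the 98.2nd percentile of all genes in the 4 pools. Thumpd1 followed at 1.88 ± 0.37 (limma adjusted p = 0.191), at the 82.1st to the 93.7th percentile. Trmt1l, an N2-guanosine methyltransferase paralogue, had ratios of 3.76 and 2.99 in old and 3.47 and 0.689 in young, so that 1 young pool lay near the median gene and the other 3 far above it (1.61 ± 0.50, limma adjusted p = 0.216). Wars, the cytosolic tryptophanyl-tRNA synthetase, had ratios of 1.79 and 5.82 in old and 1.38 and 1.55 in young (1.55 ± 0.46, limma adjusted p = 0.204).

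Vars2, the mitochondrial valyl-tRNA synthetase, had the lowest mean position, with ratios of 0.116 and 0.00509 in old and 0.229 and 0.484 in young. This was −2.27 ± 0.62 from the median gene (limma adjusted p = 0.197). Thumpd3 and Mars followed at −2.18 ± 0.79 and −1.98 ± 0.55 (limma adjusted p = 0.254 and 0.198), and Trmt12 lay at −1.64 ± 0.74 (limma adjusted p = 0.313). Members with a CPE within 100 bases of the 3' end had a median position of −0.01 (n = 13), those with a CPE farther away −0.46 (n = 23) and those without −0.26 (n = 19). For all genes these medians were 0.12, −0.02 and −0.31.

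**Figure D4:**
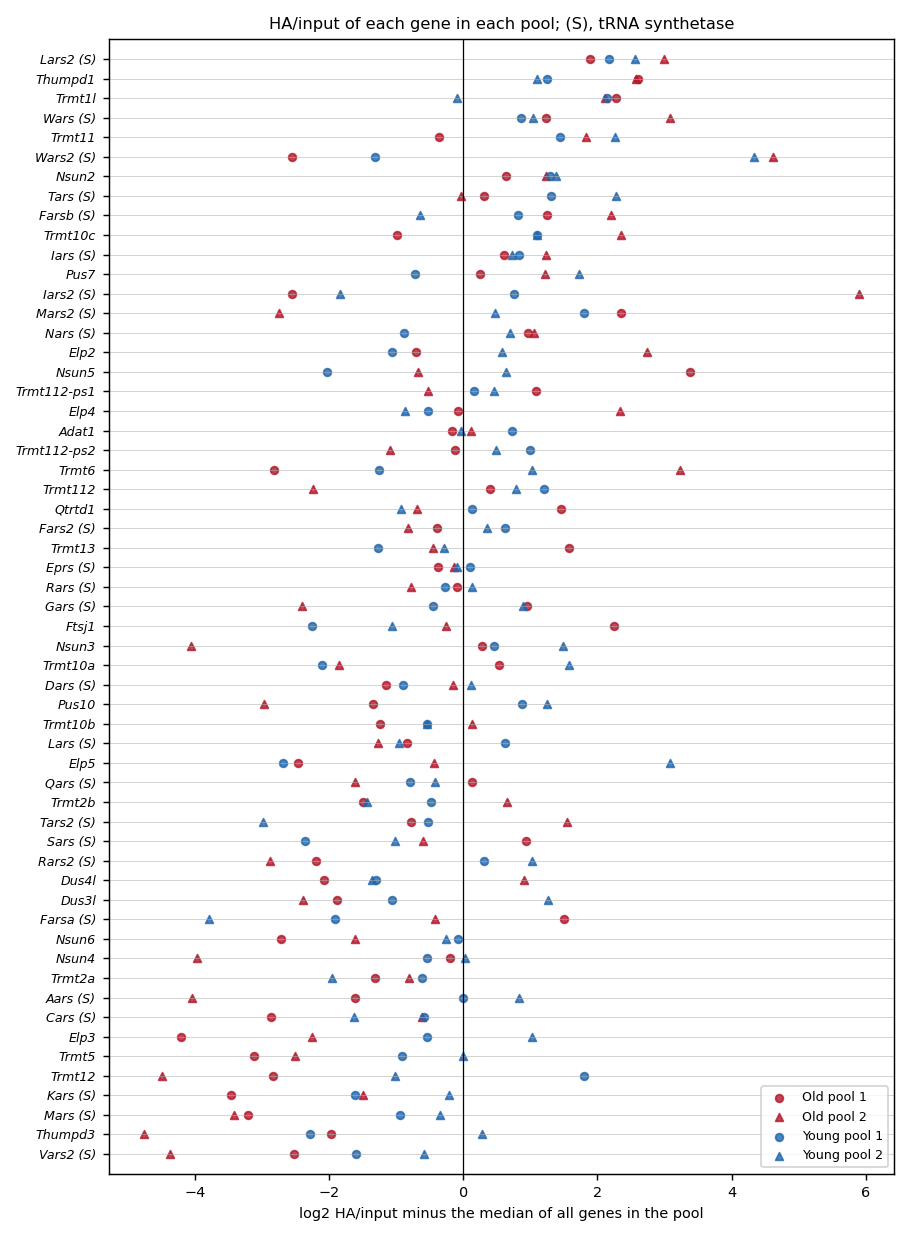
log2 HA/input of each of the 57 members in each pool, minus the median of all genes in that pool (x axis), ordered by the mean of the 4 pools, with synthetases marked (S). Red points are old and blue points young pools. Lars2, Thumpd1 and Wars lie above 0 in all 4 pools, Vars2, Mars and Kars lie below 0 in all 4, and Wars2, Iars2 and Trmt6 spread over more than 5 log2 units.

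The neighbouring steps of tRNA biology, in 3 lists of genes outside the rule (partners of synthetases, tRNA maturation and export, other tRNA modifiers), gave no adjusted call by limma in any age contrast. In HA, 1 of 38 listed genes was higher and 6 were lower in old at an unadjusted p under 0.05 (2.63% and 15.8%, against 4.28% and 10.5% of all genes). The smallest p values belonged to Angel2, at a log2 difference of 1.39 ± 0.45, and to Gatc, a subunit of the mitochondrial glutamyl-tRNA amidotransferase, at −2.58 ± 0.81 (limma adjusted p = 0.297 for both). All 6 listed partners of synthetases had a negative difference in HA, with a median of −1.14, where 54.1% of all genes had one. Gatc had 1 and 3 reads in old and 689 and 176 reads in young HA libraries, so its direction was set by the table's filter. In input, 0 of 43 were higher and 1 was lower (2.33%, against 2.71% of all genes higher and 3.48% lower). This was Dus2, a dihydrouridine synthase, at −2.18 ± 0.94 (limma adjusted p = 0.778), and Cdkal1, a tRNA methylthiotransferase, had the smallest p among those higher, at 0.57 ± 0.34 (limma adjusted p = 0.815). In HA/input, 1 of 36 was higher and 2 were lower (2.78% and 5.56%, against 2.33% and 4.23% of all genes). The higher one was Osgepl1 at 3.16 ± 1.07, and the lower ones included the tRNA cytosine methyltransferase gene Trdmt1 at −3.20 ± 1.16 (limma adjusted p = 0.724 for both). Trdmt1 had 4 and 10 reads in old and 699 and 2544 reads in young HA libraries, so its HA direction was set in the same way.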

How the data were processed

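Per the labels and the study's methods, the authors made libraries with random and poly(T) primers, trimmed the reads (Trimmomatic 0.36), aligned them to GRCm38 with HISAT2, counted them per gene without strand with HTSeq and deposited CPM signal values after TMM normalization, separately for HA and input. Intronic reads can therefore enter a gene's value. All deposited values were whole multiples of 1 read (tolerance 0.01), so reads were recovered. The stated filter was 10 CPM in 2 or more samples, whereas the tables also hold genes that reach only 1 CPM (before TMM scaling).

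Old and young were compared with limma 3.58.1 (eBayes with trend, R 4.3.3) on log2(CPM + 1), which understates changes of low genes, two-sided, with Benjamini-Hochberg adjustment over the whole table. HA/input was log2(HA + 1) minus log2(input + 1) per pool, less the pool's median gene in the last comparison. Printed ratios are plain CPM over CPM. p-values measure the spread between 2 pools per age, and an exact permutation test could not give a two-sided p below 0.333. edgeR 4.0.16 and DESeq2 1.42.0 on the recovered reads, pseudocounts of 0.1 and 5 CPM, the stated filter, other scalings, a replicate block and leaving out each pool were alternatives. Genes named with values were Thumpd1, the 2 members per class and direction with the smallest p in each age contrast, the 2 highest and 2 lowest per class in HA/input, and, outside the members, 1 gene per direction and contrast. Other genes were named for their level, or for counts of calls or of low reads, after their values were seen. Members, lists and tests were chosen with earlier results of these data known. The scripts were tested on simulated data. Trmt112 and its pseudogenes are near-identical, so their reads are uncertain. Gene models, lengths and 3'-UTRs came from GENCODE M21 (Python 3.11.15).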

Additional observations from a re-analysis of the deposited data

Results flagged for a closer look

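For 4 members, HA/input lay above the median gene of the pool in both young pools and below it in both old pools. These were Rars2 (log2 difference, old minus young, −3.30), Pus10 (−3.31), Fars2, the mitochondrial phenylalanyl-tRNA synthetase (−1.19), and the pseudogene Trmt112-ps2 (−1.45). They were picked for the opposite position of the ages, and that opposition itself was not tested. The share of all genes with such opposite positions was not counted. Rars2 and Pus10 had at most 3 reads in both old HA libraries, so the filter of the HA table had set the direction of their HA values. In limma's test of the HA/input difference between ages their adjusted p-values were 0.724, 0.724, 0.816 and 0.784. Fars2 had ratios of 0.513 and 0.341 in old and 1.16 and 0.951 in young. Trmt112-ps2 had ratios of 0.504 and 0.0837 in old and 2.23 and 1.10 in young, from 7 to 120 reads per HA library.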

How the results depend on the processing

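With 2 pools per age, precision is limited by the spread between pools, and for members near the floor by reads. In fits with a pool left out, the lone pool was assumed to vary like the other age. Members called in HA (main limma fit, 0) were 3 by edgeR's likelihood ratio test and 4 by DESeq2, all under 1 CPM in both old HA libraries. In input (main, 0) each of these tests called 2. The synthetase median in HA (main −0.35) was −0.14 with a pseudocount of 5 CPM, −0.082 with the 10 CPM filter and −0.96 with libraries scaled to the same sum, and −0.39 to −0.13 when a pool was left out. Scaling to the same sum moved the median of all HA genes from −0.14 to −0.68. Relative to that shift the synthetases kept a lower median. Without the second young pool the order turned, with −0.13 for synthetases and −0.23 for all genes. The synthetase median in input (main −0.03) was −0.19 with the same sum, 0.067 with the filter, 0.10 with quantile normalization and −0.16 to 0.091 when a pool was left out (−0.16 without the first and 0.091 without the second young pool), and in HA/input (main −0.47) it was −0.91 with the same sum and −0.28 without the second young pool. The modifier median in HA (main −0.56) was −0.17 without the second old pool, −0.31 with a pseudocount of 5 CPM, −0.86 with 0.1 CPM, −0.89 with the same sum and −0.21 with quantile normalization. In input (main 0.09) it was −0.22 without the first and 0.14 without the second old pool, 0.34 without the first and −0.16 without the second young pool, −0.08 with the same sum, 0.14 with the filter and 0.15 with quantile normalization. In HA/input (main −0.49) it was −0.30 without the second young pool, −0.29 with a pseudocount of 5 CPM and −0.13 with quantile normalization. Members lower in HA at an unadjusted p under 0.05 (main, 8 of 57) were 11 with the same sum, 2 of the 31 tested with the filter and 1 with quantile normalization. In HA/input (main, 4) they were 2 of the 30 tested with the filter, 2 with the replicate block and 7 with the same sum. The shares of all genes were not counted for these settings. Nor were they counted where a pool was left out of the comparison with the median gene, given next. Those counts therefore cannot be set against all genes. In the comparison with the median gene (main, 6 above and 5 below), 1 and 1 were called without the first young pool, 2 and 3 without the second, 8 and 7 without the first old pool and 6 and 8 without the second. Of 344 values of named genes under alternatives, 327 kept their direction and side of the threshold, 15 passed it and 2 reversed, both Lars2 in HA (−0.046 with the same sum, −0.16 with quantile normalization). The cause was not tested. Replicate numbers did not pair the pools (correlation of deviations 0.08 in HA, 0.03 in input, 0.01 in HA/input), and a fit with the replicate number as a block called 0 members in each age contrast.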
